A study of Mus musculus with 8 samples.

Results

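SMC1 binding was described at 10 genes that carry calcium entry through NMDA receptors to the transcription factor CREB: Camk2a, Camk2b, Camk4, Ppp3ca, Ppp3cb, Creb1, Crtc1, Crebbp, Ep300 and Mef2c. They were chosen by name, out of 21883 protein-coding genes with a position on GRCm38.p6. All reproducible SMC1 peaks inside each gene or within 50 kb of it were taken, which gave 15 of the 12359 peaks of resting neurons and 3 of the 1684 peaks of neurons given NMDA. SMC1 is a core subunit of cohesin, the ring complex that holds and extrudes chromatin loops. It was mapped by chromatin immunoprecipitation and sequencing (ChIP-seq) in wild-type cortical neurons of Swiss-Webster mice. The cells were taken on embryonic day 16 and cultured for 13 days. Resting cultures had no treatment. The others received 50 µM NMDA in the bath for 10 min and were collected after a further 50 min without drug. Each condition had 2 ChIP samples and 2 input samples. The labels call the replicates biological without saying whether litters differed. The cultures were not sorted per the labels' protocols, and since peak lists hold no expression, the labelled cell type could not be checked against its markers.

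Calcium that enters through NMDA receptors binds calmodulin, which switches on kinases and a phosphatase. The kinase CaMKII, whose main forebrain subunits are encoded by Camk2a and Camk2b, acts mostly at synapses, and the nuclear kinase CaMKIV (Camk4) phosphorylates CREB. Calcineurin, whose catalytic subunits are encoded by Ppp3ca and Ppp3cb, removes phosphate from the CREB coactivator CRTC1 and so lets it enter the nucleus. Phosphorylated CREB (Creb1) recruits the paralogous histone acetyltransferases CBP (Crebbp) and p300 (Ep300). Mef2c encodes a further transcription factor that calcium and calcineurin regulate in neurons.

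Of the 18 peaks, 5 covered a transcript start listed in the RefSeq promoter table. These were starts of Ep300, Mef2c, Mettl21a (peaks of both lists) and Ykt6. The same share over the whole lists is not given here, so 5 of 18 cannot be read as many or few. At Ep300 and Mef2c the start lay in the interval of a single replicate only. The sequences before the starts of Ep300, Mettl21a and Mef2c are shown because peak positions are given relative to these starts below. Each run is the 250 bases before the start, 5′ to 3′, from the same source, on GRCm38.p6, which held windows for 7 of the 10 genes (not Camk2a, Camk4 or Ppp3ca). Capitals mark the stretch AGGGGGC, a form of the core of the CTCF motif, on either strand. CTCF is the insulator protein at which cohesin often stops. The window before the start of Ykt6, which a resting peak also covered, held no AGGGGGC on either strand and is not shown. The first run lies before the start of Ep300 (chr15:81585964-81586213, plus strand), which an NMDA peak covered. The second is a start of Mettl21a (chr1:64617765-64618014, minus strand), a methyltransferase gene beside Creb1, which peaks of both lists covered. The third lies before an inner start of Mef2c (chr13:83523406-83523655, plus strand), at which a resting peak began.
Ep300: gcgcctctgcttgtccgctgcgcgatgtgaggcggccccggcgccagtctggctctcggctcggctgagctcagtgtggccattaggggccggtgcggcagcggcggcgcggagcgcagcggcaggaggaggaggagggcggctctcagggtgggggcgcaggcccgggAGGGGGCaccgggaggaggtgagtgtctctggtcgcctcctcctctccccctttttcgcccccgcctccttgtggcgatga
Mettl21a: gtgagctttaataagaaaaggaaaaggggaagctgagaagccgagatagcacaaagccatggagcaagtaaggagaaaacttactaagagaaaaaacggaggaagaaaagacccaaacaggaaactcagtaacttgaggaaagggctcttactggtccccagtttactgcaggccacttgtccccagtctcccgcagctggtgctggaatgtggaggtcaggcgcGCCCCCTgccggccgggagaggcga
Mef2c: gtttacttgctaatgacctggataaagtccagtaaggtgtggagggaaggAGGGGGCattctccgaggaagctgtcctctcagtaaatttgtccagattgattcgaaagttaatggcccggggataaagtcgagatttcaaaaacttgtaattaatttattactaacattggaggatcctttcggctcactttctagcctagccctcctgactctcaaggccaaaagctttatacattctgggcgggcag

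Peaks of resting neurons lay near 8 of the 10 genes, and peaks found after NMDA near 3. Ppp3ca and Creb1 had peaks of both lists, Ep300 had an NMDA peak alone, and Crebbp had neither. Camk2a, Camk2b, Camk4, Ppp3cb, Crtc1 and Mef2c had resting peaks alone. Among all protein-coding genes counted the same way, 62.4% had a resting peak, 16.9% an NMDA peak and 15.3% both. With 10 members, each gene moves a share by 10 points, and the members' counts were not tested against these percentages. Counted inside the gene only, or up to 10 kb away, 4 of 10 had a resting peak, against 25.4% and 38.2% of protein-coding genes. An NMDA peak was then found at 2 of 10, against 6.57% and 8.94%. All 18 peaks are drawn along their genes in the map of peak positions.

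**Figure D1:**
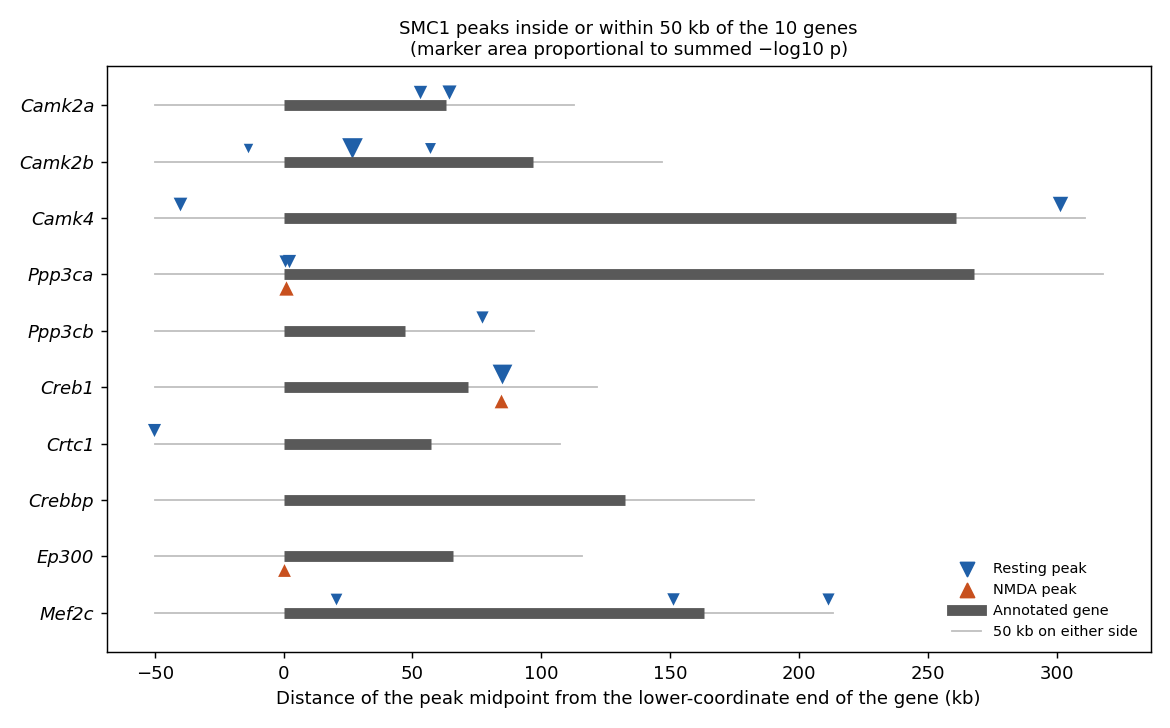
Midpoints of the 15 resting peaks (blue, above) and 3 NMDA peaks (orange, below) in kb from the lower-coordinate end of each gene. Dark bars are the annotated genes, thin lines the 50 kb on either side, and marker area is proportional to the summed −log10 p. NMDA peaks appear at the lower-coordinate end of Ppp3ca, beyond Creb1 and at the start of Ep300.

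Peak strength here is the authors' −log10 p of the peak caller, given for each of the 2 replicates (the first and the second column of the list, which carry no replicate number) and summed over both. It grows with sequencing depth, which is unknown from these lists. Strengths were therefore ranked within a list only, and ranks in lists of such different length show no change between conditions.

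The CaMKII genes carried their strongest resting sites inside the gene (Camk2b) or just beyond one of its ends (Camk2a). Camk2b held the strongest resting peak of all 10 genes, at 5995765 to 5996360 on chromosome 11, with a summed −log10 p of 81.5. Its replicate columns were 40.9 and 40.7, so both replicates gave nearly the same value. In the resting list 96.5% of peaks were weaker. The site lay inside the gene, 70.3 kb from its start end, and no NMDA peak overlapped it. A second peak inside Camk2b, at 6026192 to 6026855, was weaker at 22.8 (14.8 and 8.02). The third, at 5955322 to 5956133, was among the weakest of the whole list, with 17.1 (9.48 and 7.61), and only 0.388% of peaks lay below it. That peak was 13.5 kb from Camk2b and covered the start of Ykt6, which encodes a SNARE protein of vesicle fusion.

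Camk2a, on chromosome 18, had a pair of resting peaks around its upper end. The stronger, at 60989017 to 60989640, lay 865 bp beyond the gene and had 38.3 (21.7 and 16.5). The other, at 60977996 to 60978782, lay inside the gene, 9.76 kb from the upper end, with 34.2. Its replicate columns of 24.1 and 10.2 were less even: 79.1% of peaks were lower in the first column and 22.6% in the second. Camk2a had no NMDA peak within 50 kb, and the nearest was 328 kb away.

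Camk4, a gene of 261 kb on chromosome 18, had no peak inside it in either list. Its resting peaks stood at nearly equal distances outside both ends. The peak at 32894222 to 32895112 was 39.8 kb below the gene and had 35.8 (21.2 and 14.6). The peak at 33235859 to 33236845 was 40.1 kb above it and had 45.7 (28.9 and 16.8), which put 78.8% of the resting list below it. Both sites were intergenic. The closest NMDA peak to Camk4 was 268 kb away.

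Of the calcineurin genes, Ppp3ca had SMC1 at its own end in both lists, and Ppp3cb had a resting peak outside the gene alone. Ppp3ca is the longest of the 10 genes at 268 kb. At rest a peak at 136669208 to 136671080 on chromosome 3 had 28.2 (16.16 and 12.04), and a neighbour at 136671139 to 136672611, 58 bp further, had 33.4 (16.2 and 17.3). These were middling values, with 43.6% and 58.3% of the resting list below them. After NMDA a single peak at 136669350 to 136671859, 2510 bp wide, overlapped both and had 39.2 (21.0 and 18.2). It was the strongest NMDA peak at the 10 genes, with 95.6% of the NMDA list weaker, and both of its columns stood above the NMDA list medians of 12.9 and 10.1. Per 1 kb of peak width, 15.9% of the NMDA list was lower, below Creb1 (55.0%) and Ep300 (76.0%).

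The NMDA peak shared 92.4% of the first resting peak of Ppp3ca and 48.9% of the second. Its summit lay 722 bp inside the lower end of the gene, 261 bp from the first resting summit and 1155 bp from the second.

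Ppp3cb, at 47.2 kb the shortest of the 10, had a resting peak 29.5 kb beyond its start end and none inside. The peak, at 20576108 to 20576681 on chromosome 14, had 28.7 (17.1 and 11.6), and its midpoint lay in Usp54, a gene of the ubiquitin-specific protease family. The closest NMDA peak was 114 kb from Ppp3cb.

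At Creb1 the SMC1 site lay 12.2 kb beyond the gene's end, at a start of Mettl21a, and was found in both lists. The resting peak at 64616784 to 64618080 on chromosome 1 had 74.7 (42.1 and 32.6), the second highest at the 10 genes, with 95.2% of the resting list weaker. Per 1 kb of its 1297 bp width it ranked lower, with 58.9% of the list below it, under Mef2c (67.1%) and Camk2a (63.2%). The NMDA peak at 64616516 to 64617977 had 35.8 (23.0 and 12.8), with 92.8% of its list weaker. Both columns of each peak were above the medians of their own list. The resting and NMDA summits were 1 bp apart.

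Those summits lay 6 and 5 bp from the Mettl21a start, and 25 and 24 bp from the AGGGGGC match in the sequence above, which is on the strand opposite to Mettl21a. No peak of either list lay inside Creb1 or within 10 kb of it. The Creb1 count rests on a site at the neighbouring gene.

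Crtc1 was counted through a site close to the distance limit. Its resting peak at 70331758 to 70332629 on chromosome 8 was 49.7 kb from the gene and had 32.9 (14.7 and 18.2). The midpoint was within 1 kb of annotated ends of Upf1, an RNA helicase gene of nonsense-mediated decay, and of Cers1 and Gdf1. Just outside the limit, a resting peak of 21.1 at an end of Rex1bd lay 66.9 kb away, on the other side of Crtc1. Just outside it for Mef2c, an NMDA peak of 20.5 at the microRNA gene Mir9-2 was 70.7 kb away and a resting peak of 29.3 was 77.2 kb away.

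The acetyltransferase paralogs had no resting peak within 50 kb. For Ep300 the nearest was 159 kb away and for Crebbp 102 kb. Ep300 had an NMDA peak at its start, at 81585858 to 81586871 on chromosome 15, with a sum of 31.4. Its replicate columns were 6.75 and 24.6, the least even of the 3 NMDA peaks. The first value was the lowest that any peak of the NMDA list has in that column, shared by 9 peaks, while 98.9% of the list was lower in the second column. The second value was 3.65 times the first, a ratio that 4 of the 1684 NMDA peaks reached, Ep300 included. In 36 other peaks the first value exceeded the second by at least as much.

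The intervals called in the replicates also differed at Ep300. In the first column's replicate the peak ran from 81586218 to 81586871, beginning 4 bp beyond the listed start, and in the second from 81585858 to 81586782. The peak's global IDR, the estimated rate of irreproducible peaks, was 0.0372, near the authors' limit of 0.05. At a limit of 0.01 it was no longer listed, while the NMDA peaks at Ppp3ca (0.00129) and Creb1 (0.00288) were, and 3.88% of protein-coding genes had an NMDA peak within 50 kb. Of all protein-coding genes, 1.51% had an NMDA peak but no resting peak within 50 kb, and 0.539% had that NMDA peak within 1 kb of a gene end.

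Crebbp had no peak in either list within 50 kb, as did 36.1% of protein-coding genes. The nearest NMDA peak was 328 kb away. The 250 bases before its RefSeq start were 84.0% G and C and those before Ep300 73.2%, against a median of 52.4% over all 32851 windows in the table. Both windows had 1 AGGGGGC match, a stretch found in 9.43% of all windows and chosen after a looser search of the promoter sequences. The match at Ep300 lay inside the NMDA peak, 404 bp from its summit, but within the interval of the second column's replicate only.

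Mef2c had 3 resting peaks of similar, middling strength and no NMDA peak within 50 kb. The peak at 83523638 to 83525043 on chromosome 13 had 26.3 (10.6 and 15.7). It began 18 bases before the inner start of Mef2c shown above, 20.3 kb into the gene, and its summit was 591 bp beyond that start. In the first column's replicate the peak ran from 83523823 to 83524959 and did not cover the start. In the second it ran from 83523638 to 83525043 and did. The AGGGGGC match before this start lay outside the peak. A narrower peak of 461 bp at 83654814 to 83655274, 12035 bp from the gene's far end, had 29.8 (17.2 and 12.6). The third, at 83714694 to 83715746, lay 47.6 kb beyond the gene at an end of the predicted gene Gm52046 and had 28.4 (16.1 and 12.3). The other listed starts of Mef2c, including the outermost, had no peak.

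**Figure D2:**
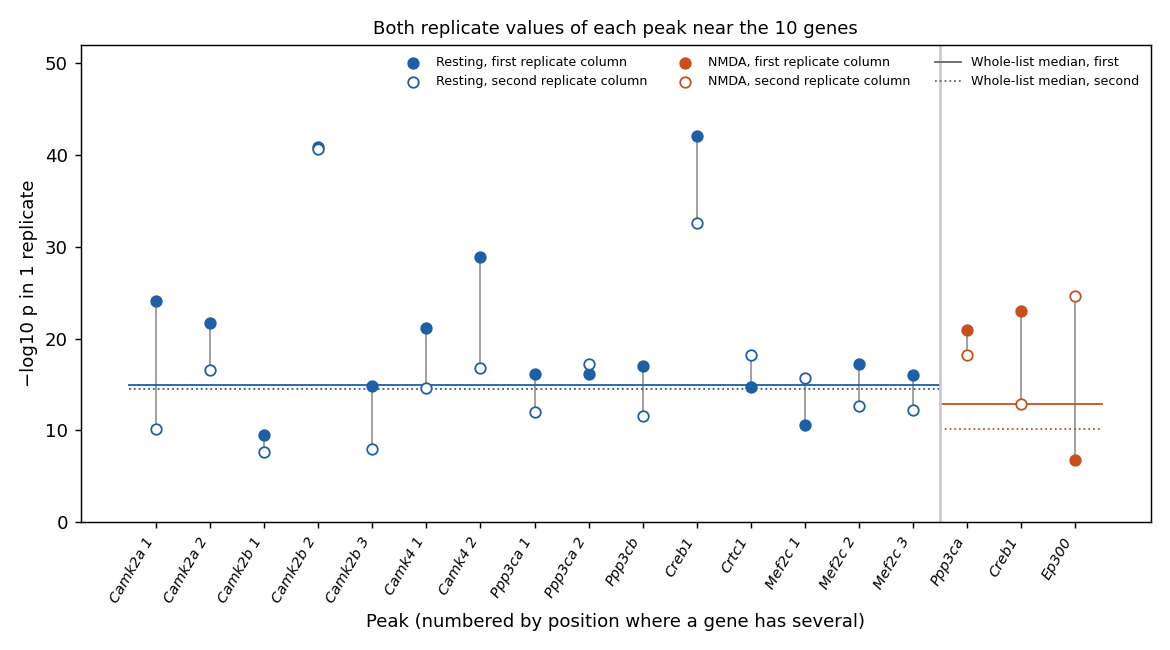
The −log10 p of each peak in the first (filled) and second (open) replicate column, for the 15 resting (blue) and 3 NMDA (orange) peaks. Horizontal lines are the medians of the whole lists, solid for the first column and dotted for the second. The columns nearly coincide at the strong Camk2b peak (40.9 and 40.7) and lie farthest apart at the NMDA peak of Ep300 (6.75 and 24.6).

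Across the 15 resting peaks the summed −log10 p ran from 17.1 to 81.5 with a median of 32.9, and the whole resting list had a median of 30.2. Of the 15, 8 were above the median of the list. Their widths ran from 461 to 1873 bp with a median of 872 bp, against 644 bp in the list. The first column exceeded the second in 12 of the 15, against 54.1% of all resting peaks. Taking the strongest resting peak of each of the 8 genes, the median was 35.9, equal at this precision to the 35.9 of the 13649 protein-coding genes with a resting peak. The strongest NMDA peaks of the 3 genes ran from 31.4 to 39.2 with a median of 35.8, and the 3690 protein-coding genes with an NMDA peak had a median of 23.2. Of those genes 8.10% lay above 35.8. Per 1 kb of peak width, the share of the NMDA list below these 3 peaks was 15.9% (Ppp3ca), 55.0% (Creb1) and 76.0% (Ep300). The positions within each list are plotted in the curves of list rank.

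**Figure D3:**
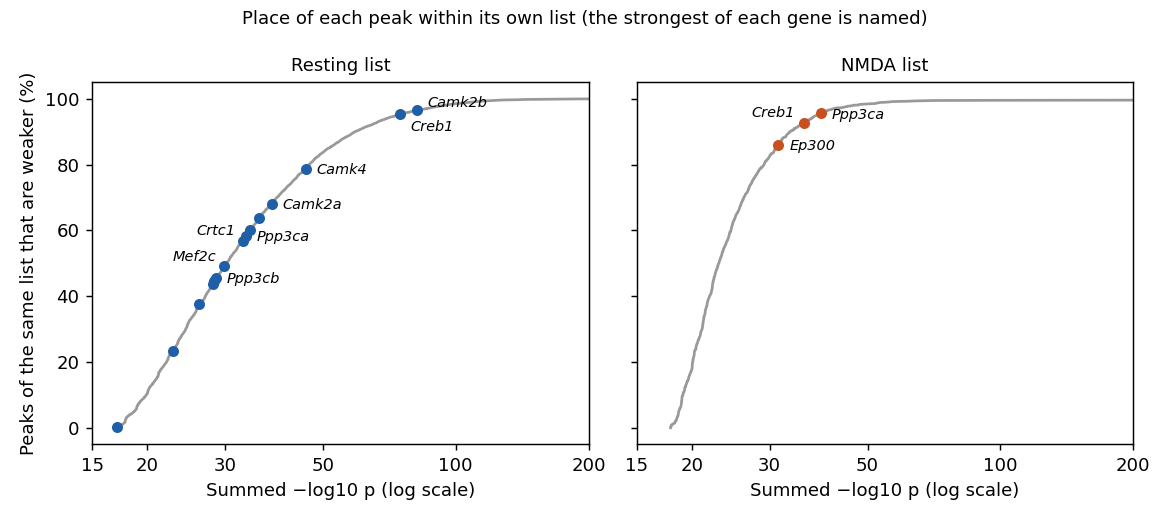
Percent of the same list that is weaker (vertical) against the summed −log10 p (horizontal, log scale) for the resting list (left) and the NMDA list (right). Grey curves are the whole lists, points the peaks at the 10 genes, and the strongest peak of each gene is named. Camk2b (96.5%) and Creb1 (95.2%) are the highest at rest by the summed value (per 1 kb of peak width Camk2b has 97.5% and Creb1 58.9%). The NMDA points lie at 86.0% to 95.6%, and per 1 kb of peak width the same peaks have 15.9% to 76.0%.

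By position, 7 of the 15 resting peaks touched a member and 8 lay outside. A midpoint within 1 kb of any annotated gene end was found for 4 of the 15 (26.7%, against 29.0% of the resting list), 8 lay elsewhere in genes and 3 were intergenic. At a member's own end, a resting peak was found at 1 of 10 genes (Ppp3ca), and 14.3% of protein-coding genes had one. NMDA peaks lay at the own end of 2 of 10 (Ppp3ca and Ep300), and 4.82% of protein-coding genes had one. Camk2a was just outside this limit, since the midpoint of its peak was 1176 bp from the gene's end.

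An NMDA peak overlapped 3 of the 15 resting peaks (20.0%, exact Clopper-Pearson 95% interval 4.33 to 48.1%, counting error only), 2 of them under the same NMDA peak at Ppp3ca. In the whole resting list the share was 10.7%. Peaks near the same gene are not independent, so the interval does not test this difference. Long genes have wide windows, and the 10 genes had a median length of 84.2 kb against 17.2 kb for all protein-coding genes. Per 100 kb of window the 10 genes had 0.674 resting and 0.135 NMDA peaks, and all protein-coding genes 0.823 and 0.128. Resting peaks per length of window were thus no more frequent at the 10 genes than at all protein-coding genes.

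A wider list of 51 genes of the same signalling route was examined in the same way. It holds calmodulin, further calcium-dependent kinases, calcineurin and its regulators, CREB relatives, MEF2 and NFAT factors, kinases that act on CRTC, and the Ras and cyclic AMP branches. A resting peak lay within 50 kb of 42 (82.4%, against 62.4% of protein-coding genes), an NMDA peak near 21 (41.2%, against 16.9%) and both near 19 (37.3%, against 15.3%). NMDA peaks alone were found at Rcan1 and Kat2b (against 1.51% of protein-coding genes), and 7 genes had neither (against 36.1%). The NMDA peaks of Rcan1 and Kat2b had 19.5 and 22.3, with 14.3% and 43.8% of the NMDA list weaker. At an own end, 21 of the 51 had a resting peak (41.2%, against 14.3%) and 10 an NMDA peak (19.6%, against 4.82%). These genes had 1.02 resting and 0.233 NMDA peaks per 100 kb of window, against 0.823 and 0.128 for all protein-coding genes. The median length of the 51 was 64.1 kb, against 17.2 kb for all protein-coding genes. None of these differences was tested, and genes were not matched for length or expression. The 51 genes were chosen with earlier results of these data known, so the differences are not independent of that choice.

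**Figure D4:**
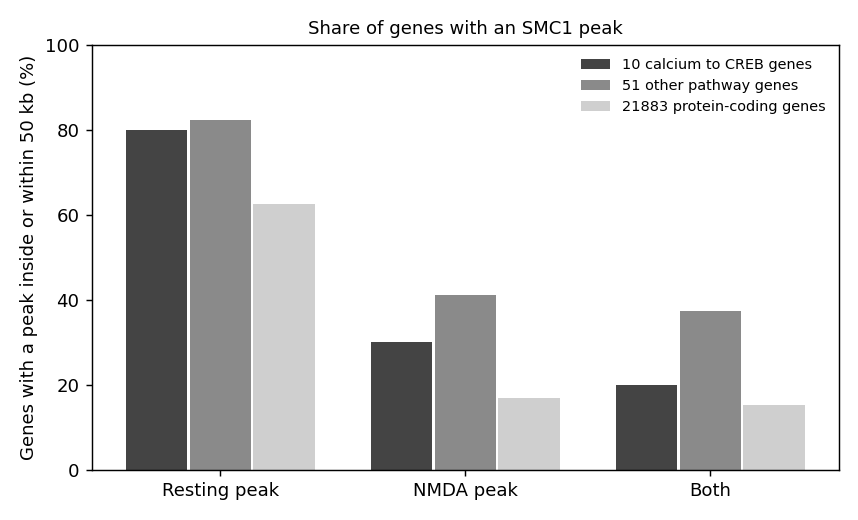
Percent of genes with a resting peak, an NMDA peak or both inside or within 50 kb, for the 10 genes, the 51 other pathway genes and 21883 protein-coding genes. The 51 genes stand at 82.4%, 41.2% and 37.3%, and all protein-coding genes at 62.4%, 16.9% and 15.3%. No error bars are drawn because each bar is a count over 1 list. The 10 and the 51 genes were chosen with earlier results of these data known.

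The strongest resting sites of the wider list included those at Nfatc2, Nfatc1, Cited2, Sik2 and Camk1d. NFAT factors are direct targets of calcineurin, and Nfatc2 had the highest value, 127 (71.2 and 55.4), at an intergenic site 30.2 kb from the gene that an NMDA peak of 30.7 overlapped. Nfatc1 had 79.1 at a site 15.8 kb from the gene and no NMDA peak. Sik2, which encodes a kinase that holds CRTC in the cytoplasm, had 75.6 at its own end, with an overlapping NMDA peak of 28.4. Camk1d, a CaMKI gene, had 75.5 at its own end and an NMDA peak of 25.6 there. Cited2, whose product binds CBP and p300, had 2 resting peaks, the stronger of 75.7 at 7.25 kb from the gene and the other at the gene's own end, where an NMDA peak of 36.2 overlapped it.

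By NMDA strength the list was led by Mef2b with 39.8, and the strongest also included Cited2, Sik3, Dyrk1a and Crem. Mef2b, a paralog of Mef2c, had this peak at its own end, where the resting peak had 47.8. The replicate columns of the Mef2b NMDA peak were 30.7 and 9.05. Sik3 had 33.7 (11.7 and 22.0) at an end that it shares with Pafah1b2. The NMDA peak counted for Dyrk1a, 32.1 (26.1 and 5.94), was 42.5 kb away at an end of Vps26c. Crem, a CREB relative that also yields the repressor ICER, had 30.8 (24.8 and 6.06) at its own end. The resting peak of Crem, at 28.4, lay elsewhere in the gene and did not overlap it. Columns about as uneven as at Ep300 were also present at Mef2b, Dyrk1a, Crem and Sik2 (22.3 and 6.09), there with the first column high.

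The promoter windows of the 7 members in the table, 9 in all, held neither the cyclic AMP response element TGACGTCA, to which CREB binds, nor its shorter core TGACG on either strand. The full element contains the core on both strands. Of all windows, 1.55% had the element and 17.8% the core. The other CTCF core form searched, AGGTGGC, was in 5.08% of windows and in none of the members', while AGGGGGC was in 3 of the 9 (Crebbp, Ep300 and the inner start of Mef2c). Both forms were chosen after the promoter sequences had been searched with a looser pattern, so their counts are not independent of that choice. Absence of these letters from 250 bases describes this stretch only.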

How the data were processed

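The authors deposited 1 list of peaks per condition in the 20-column layout of the irreproducible discovery rate (IDR) tool, with no header. The submitters' processing notes name FastQC, Trimmomatic, BWA, SAMtools, MACS2, mm10 and GRCm38.p6, without versions; how they were set is not given in the sources used here. Each deposited line holds a −log10 p per replicate, their sum (tested on every line), a scaled IDR score, and both IDR values (local and global) as −log10. Only sites seen in both replicates with an IDR up to 0.05 are listed, so neither failed peaks nor library depth can be read from them. Input samples were not analysed here.

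Genes came from the RefSeq table of GRCm38.p6, on chromosomes 1 to 19, X and Y, with strand only where its promoter table gave one. A peak counted for a gene when at least 1 bp lay inside it or within 50 kb. Peaks of both lists overlapped where they shared at least 1 bp. The 10 genes, the list of 51 genes and the motifs were chosen with earlier results of these data known, and the 2 CTCF core forms after the promoter sequences had been searched with a looser pattern. Named genes are the 10, and of the 51 the 6 strongest by list, with some results not reported here. Every result is a count or a deposited value beside the same over all protein-coding genes: no test was made, because each condition has 1 list, and with 2 replicate values on each side 0.333 is the smallest p that an exact permutation test allows. Intervals cover counting error only. Alternatives changed the distances, IDR limit, overlap, background and measure of strength. Counting was tested on simulated peaks. Python 3.11.15, pandas 2.3.3, numpy 2.4.6, scipy 1.17.1 and matplotlib 3.10.9 were used.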

Additional observations from a re-analysis of the deposited data

How the results depend on the processing

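Of 50 alternatives to the counts and list ranks, 34 stayed within 1.5 times the count or within the spread of the replicate columns. By that limit a fall from 3 to 2 members with an NMDA peak counted as staying. Changing only the background could not move the member counts (8, 3 and 2), and these alternatives are among the 34. Of 33 alternatives to the rank of a single gene's strongest peak, 16 moved by more than the spread of the replicate columns. The spread used was narrower than the gap between the 2 columns, so shifts below that gap could count as moved. At rest Camk4 went from 78.8% to 59.9% with the second column alone, against 86.5% with the first, and counted as moved. Single columns, which set that spread, are among these alternatives. Where the columns agreed, a small shift counted as moved (Camk2b at rest, 96.5% to 97.5%). Where they differed, a larger one did not (Ep300 after NMDA, 86.0% to 98.9%). The 16 thus depends on column agreement. Per 1 kb of peak width, the share of the resting list below the strongest peak went from 58.3% to 9.85% at Ppp3ca, from 95.2% to 58.9% at Creb1 and from 78.8% to 43.7% at Camk4. Inside the gene only, or up to 10 kb, 4 members had a resting peak and 1 (Ppp3ca) had both, 12 of the 51 pathway genes had both (against 4.88% and 7.28% of protein-coding genes), and the windows held 7 or 8 resting peaks. At an IDR up to 0.01, 7 of the 51 had an NMDA peak (3.88% of protein-coding genes) and 6 had both (3.37%), and 1 member (Ppp3ca) kept an NMDA peak at its own end (1.09%). Within 2 kb of an end 2 members had a resting peak (17.9%), and within 500 bp 1 had an NMDA peak (3.82%). The median share of the list below each gene's strongest peak was 63.2% at rest and 92.8% after NMDA. With single replicate columns it ran from 61.5% to 69.1% and from 88.4% to 95.7%, and per 1 kb of peak width it was 53.9% and 55.0%. The cause of the last shift was not tested. The NMDA peak of Ep300 stood at 0% of the list by the first column alone and 98.9% by the second.

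No paired analysis was possible because each list has 1 line per site over both replicates, the replicate columns carry no numbers and no result comes from a test. Leaving out a replicate could not be carried through the peak calling, since sites seen in 1 replicate were not analysed here.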
